A study of Mus musculus with 8 samples.

Results

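The genes described are 10 regulators of the G1 phase of the cell cycle, among them the classical targets through which TGF-β halts the proliferation of epithelial cells. They were chosen by symbol from the 37310 genes of the deposited count table and comprise the transcription factor *Myc*, the cyclins *Ccnd1*, *Ccnd2*, *Ccnd3* and *Ccne1*, the phosphatase *Cdc25a* and the cyclin-dependent kinase (CDK) inhibitors *Cdkn1a*, *Cdkn1b*, *Cdkn1c* and *Cdkn2b*. All 10 were found in the table, 9 passed the filter on low counts and were tested, and *Cdkn1c* did not. RNA-seq was performed in NMuMG cells, a mouse mammary epithelial line, in 4 conditions with 2 libraries each, labelled as biological replicates. Control cells and *Lnc-Nr6a1*-depleted (KO) cells were either left untreated or treated with 10 ng/ml TGF-β1 for 2 h. The KO cells carry a CRISPR-Cas9 deletion that spans the start of *Lnc-Nr6a1*, a long non-coding RNA, and were grown from single sorted cells. Whether all KO libraries, untreated and treated, came from the same clone is not given in the sources used here, so genotype and clone cannot be told apart. The study reports that *Lnc-Nr6a1* also hosts the microRNAs miR-181a2 and miR-181b2 and that the deletion affected their expression. The lncRNA and these microRNAs therefore cannot be told apart here. The comparisons ask which of these genes respond to a short TGF-β treatment, and whether their levels differ between the genotypes.

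TGF-β signals through a receptor kinase to SMAD transcription factors. In epithelial cells it is known to arrest the cycle in G1, classically by repressing *Myc* and *Cdc25a* and by inducing *Cdkn2b* and *Cdkn1a*. Cyclins D1, D2 and D3 activate CDK4 and CDK6, cyclin E1 activates CDK2, and both kinases release E2F factors from the retinoblastoma protein so that the genes of DNA replication are transcribed. The INK4 inhibitor encoded by *Cdkn2b* blocks CDK4 and CDK6, whereas the Cip/Kip inhibitors encoded by *Cdkn1a*, *Cdkn1b* and *Cdkn1c* bind the cyclin-CDK complexes themselves.

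The total count per library ranged from 4297832 in an untreated KO library to 13574397 in a treated KO library, and 3 counts corresponded to between 0.238 and 0.661 CPM, the counts scaled to library size. *Lnc-Nr6a1*, listed as *Gm13507*, had 3 and 14 counts in untreated control cells, 25 and 35 in treated control cells, and 0 in both treated KO libraries, at least 12.5-fold lower against a floor of 3 counts per library. In the untreated KO libraries it had 11 and 7 counts, or 2.42 and 0.93 CPM, against 0.36 and 1.71 CPM in the untreated control libraries, so the gene did not separate these libraries by their genotype labels, and KO below means the libraries labelled KO. TGF-β treatment was visible in both genotypes in *Smad7*, the inhibitory SMAD, which was at 27.6 and 33.6 CPM in untreated and at 130 and 67.0 CPM in treated control libraries, and at 38.8 and 31.4 CPM in the untreated and at 132 and 207 CPM in the treated KO libraries. It rose by 1.69 ± 0.32 in control and by 2.28 ± 0.33 in KO cells (log2 fold change ± SE, edgeR adjusted p = 0.0152 and 0.00449). The epithelial keratins *Krt8*, *Krt18* and *Krt19* were the most abundant of 14 epithelial markers and *Cdh1* was present at 193 to 400 CPM, whereas *Epcam* had 2 counts in all and *Cldn3*, *Cldn7* and *Esrp1* had none. The summed level of the fibroblast, immune and endothelial marker lists stayed under 6 CPM in every library.

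Promoter sequences of 6 of the 10 genes were matched by symbol in RefSeq (GRCm38.p6), and the 250 bases before the transcription start are shown for 4 of them, the inhibitors *Cdkn2b* and *Cdkn1a* with the TGF-β-responsive SMAD motif and *Ccne1* and *Cdc25a* as genes of the G1 to S transition. *Myc*, *Ccnd1*, *Ccnd2* and *Cdkn1c* had no match by symbol in the promoter set used here. Capitals mark the SMAD box CAGAC, in either orientation, and the E2F motif, searched as TTTCCCGC, TTTGGCGC, TTTCGCGC and TTTGCCGC on both strands. The sequences are written 5′ to 3′ on the strand of the gene, at chr4:89311033-89311282 (minus strand) for *Cdkn2b*, chr17:29093519-29093768 (plus strand) for the second annotated start of *Cdkn1a*, chr7:38107491-38107740 (minus strand) for *Ccne1* and chr9:109875329-109875578 (plus strand) for *Cdc25a*.
Cdkn2b: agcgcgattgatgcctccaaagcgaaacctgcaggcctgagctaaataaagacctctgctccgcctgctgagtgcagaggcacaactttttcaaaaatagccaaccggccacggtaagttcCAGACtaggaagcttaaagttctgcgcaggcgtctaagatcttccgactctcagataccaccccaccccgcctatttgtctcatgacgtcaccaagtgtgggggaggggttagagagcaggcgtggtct
Cdkn1a: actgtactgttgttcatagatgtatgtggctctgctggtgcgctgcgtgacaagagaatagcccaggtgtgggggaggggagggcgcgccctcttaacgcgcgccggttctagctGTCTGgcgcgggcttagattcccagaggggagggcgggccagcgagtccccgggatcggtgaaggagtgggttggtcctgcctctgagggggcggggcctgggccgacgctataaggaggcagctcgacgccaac
Ccne1: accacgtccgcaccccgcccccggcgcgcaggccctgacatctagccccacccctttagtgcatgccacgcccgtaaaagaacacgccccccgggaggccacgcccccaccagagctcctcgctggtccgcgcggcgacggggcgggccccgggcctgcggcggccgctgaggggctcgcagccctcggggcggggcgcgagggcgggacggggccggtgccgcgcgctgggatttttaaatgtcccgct
Cdc25a: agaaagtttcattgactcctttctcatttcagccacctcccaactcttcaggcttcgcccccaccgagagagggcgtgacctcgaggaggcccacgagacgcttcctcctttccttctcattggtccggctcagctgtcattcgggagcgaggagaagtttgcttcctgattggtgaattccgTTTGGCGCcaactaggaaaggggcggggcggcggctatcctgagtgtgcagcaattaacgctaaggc
The SMAD box lay at positions -129 to -125 from the start in *Cdkn2b* and at -135 to -131 in *Cdkn1a*, as CAGAC and as its reverse complement GTCTG. The other annotated *Cdkn1a* start also had 1 match, at -93 to -89, and the first start of *Ccnd3* had 2, while the windows of *Ccne1*, *Cdc25a* and *Cdkn1b* had none. The same motif was found in 42.2% of 32851 promoters of this length, so a match describes the sequence and not a site. The E2F motif was found in *Cdc25a*, at -67 to -60, and in 1.86% of all promoters. *Ccne1* had no E2F match and 4 GC boxes, GGGCGG on either strand, a motif present in 32.7% of all promoters.

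Per kb of exon, the 10 genes differed widely in level, and the ends of their order were the same in all 4 conditions. *Ccnd1* stood first, at 293 ± 12.4 CPM per kb in untreated control cells (mean ± SD, n = 2), *Cdkn2b* second at 32.8 ± 6.43 CPM per kb, *Ccnd2* ninth at 2.73 ± 0.384 CPM per kb and *Cdkn1c* last at 0.0316 ± 0.0447 CPM per kb. In between, the libraries of neighbours in the order overlapped for *Cdkn1a* and *Myc*, *Myc* and *Cdkn1b*, and *Cdc25a* and *Ccnd3* in untreated control cells, and *Cdkn2b* and *Cdkn1a* overlapped in both treated groups. *Ccnd1* accounted for 94.4% to 95.7% of the summed D-type cyclin level per kb in the group means. Among the Cip/Kip inhibitors, *Cdkn1a* made up 57.8 ± 3.30% of the summed level per kb in untreated and 65.1 ± 14.1% in treated control cells, and 59.7 ± 7.45% in untreated and 70.3 ± 17.6% in treated KO cells. The rest was almost all *Cdkn1b*. These shares are descriptions without a test.

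**Figure D1:**
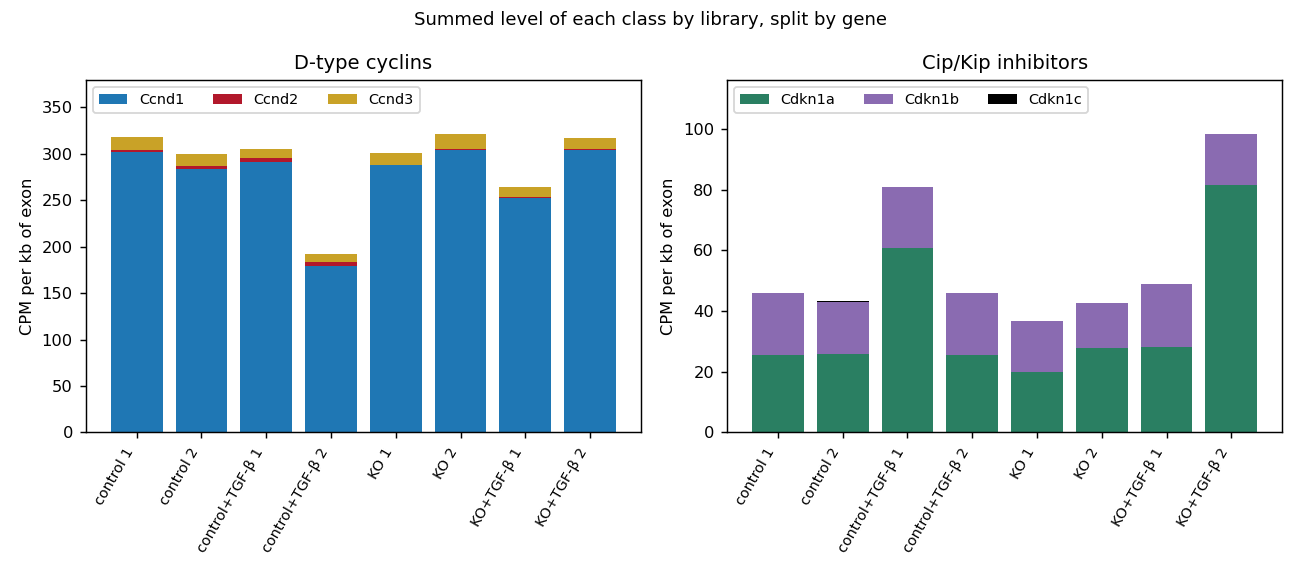
Summed level of the D-type cyclins (left) and of the Cip/Kip inhibitors (right) in each library, in CPM per kb of exon on a linear axis, with each bar split by gene. *Ccnd1* fills nearly all of every cyclin bar, the *Cdkn1a* part is tallest in treated control library 1 and treated KO library 2, and *Cdkn1c* is too low to be seen.

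Of the 9 genes tested, none was called for TGF-β treatment in control cells, where 9.16% of all 13028 genes tested were called, and none in KO cells, where 6.82% were. In edgeR, a gene was called where its adjusted p was under 0.05 and its log2 fold change exceeded 0.5 in size. The unadjusted p was below 0.05 for 2 of 9 in control and 3 of 9 in KO cells, beside 3491 and 2956 of all 13028 genes. DESeq2 called 0 and 1 (*Ccne1*), beside 1436 and 1193 of all 37310 genes, and limma-voom 0 and 0, beside 1084 and 786 of 13028. Between genotypes, none of 9 was called in untreated cells, beside 1.83% of all genes. The unadjusted p was below 0.05 for 2, beside 1936 of all 13028 genes. DESeq2 called 1 (*Ccnd2*), beside 401 of all 37310 genes, and limma-voom 0, beside 137 of 13028. After TGF-β, *Ccnd2* and *Ccne1*, 2 of 9, were called lower in KO than in control cells, beside 6.57% of all genes called lower and 15% called in either direction. The 4 comparisons share libraries and are not independent of each other. In bulk RNA, fewer cells expressing a gene and less RNA per cell cannot be told apart.

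**Figure D2:**
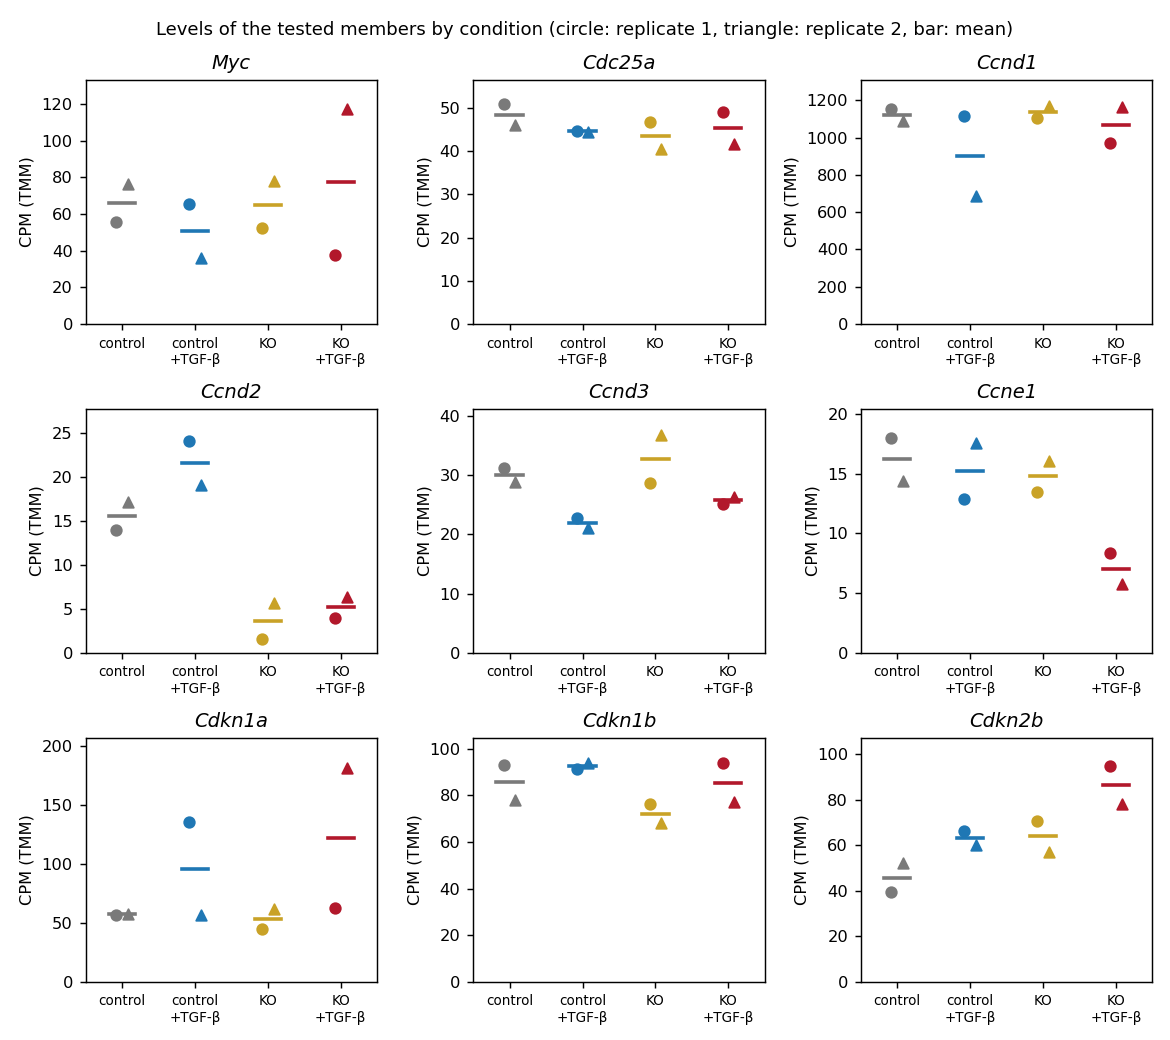
Level of each tested gene in CPM with TMM factors (linear axes from 0) in the 4 conditions, with a circle for replicate 1, a triangle for replicate 2 and a bar for the mean. *Ccnd2* is lower in all 4 KO libraries than in all 4 control libraries, *Ccne1* is lowest in the 2 treated KO libraries, and *Myc* and *Cdkn1a* are spread widely in the treated groups.

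*Myc* (ENSMUSG00000022346, chromosome 15, 61816946 to 61821929, plus strand on NCBIM37), whose product drives growth and cell cycle genes, was at 55.5 and 76.2 CPM in untreated and at 65.6 and 36.2 CPM in treated control libraries. It was at 52.5 and 77.9 CPM in the untreated and at 37.4 and 117 CPM in the treated KO libraries. The ranges overlapped in all 4 comparisons. The treated libraries disagreed among themselves more than the conditions did: the treated KO libraries differed 3.13-fold, a larger log2 CPM difference than that of 98.98% of tested genes between the same libraries, and the treated control libraries differed 1.81-fold. The log2 fold change with TGF-β was -0.37 ± 0.47 in control cells (95% interval -1.43 to 0.69, adjusted p = 0.658) and 0.24 ± 0.47 in KO cells (-0.82 to 1.29, adjusted p = 0.816). Both intervals reach past 0.5 in each direction, so a response of that size in either direction was not detectable at this spread. Between treated genotypes it was 0.60 ± 0.47 (adjusted p = 0.414), and it became 1.21 without treated KO replicate 1 and -0.43 without treated KO replicate 2.

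Of 11 tested genes of the wider MYC network, which includes related factors and a neighbouring lncRNA gene, 1 was called in each comparison (with TGF-β, 4.47% of all genes were called lower in control and 2.57% in KO cells, and 1.03% and 8.47% were called higher in KO cells without and with TGF-β). These were *Mlxip* lower with TGF-β in control cells (-0.97 ± 0.23, adjusted p = 0.0315), *Pvt1*, the lncRNA gene next to *Myc*, lower with TGF-β in KO cells (-0.95 ± 0.19, adjusted p = 0.0201), and *Mxd4*, a MAX-binding repressor, higher in KO than in control cells without (1.10 ± 0.20, adjusted p = 0.0298) and with TGF-β (1.28 ± 0.20, adjusted p = 0.00499). *Mxd4* was at 27.9 to 48.1 CPM in the 4 control libraries and at 66.9 to 110 CPM in the 4 KO libraries, which did not overlap. Its call without TGF-β was lost with the replicate block, with thinned counts and without any of the 4 untreated libraries. The *Mlxip* call was lost with only the 4 libraries compared and without treated control replicate 2 or any of the 4 untreated libraries, and the *Pvt1* call without either untreated KO library or treated KO replicate 2. Of 25 genes that MYC is known to activate, 1 rose and 2 fell with TGF-β in control cells, beside 4.69% and 4.47% of all genes. The lower genes were *Cad* of pyrimidine synthesis (-1.15 ± 0.18, adjusted p = 0.00701) and the nucleolar *Ncl* (-0.81 ± 0.14, adjusted p = 0.00874), and neither fall was called without untreated control replicate 1, nor was the rise without either untreated control library. *Ncl* alone was called lower in KO cells, beside 2.57% of all genes (-0.54 ± 0.14, adjusted p = 0.0461), a call that was lost with the replicate block, with only the 4 libraries and without any of the 4 untreated or either treated KO library. In KO against control cells 1 of the 25 was lower without and 6 were lower with TGF-β, beside 0.798% and 6.57% of all genes. The nucleolar *Npm1* had the smallest adjusted p after TGF-β (-0.76 ± 0.14, adjusted p = 0.0092). The 6 became 1 without either treated KO library, 4 without any of the other libraries but treated control replicate 1, and 0 with only the 4 libraries, whereas the 1 lower without TGF-β became 2 with DESeq2, 3 without a filter on low counts, 4 with only the 4 libraries and 0 with limma-voom and without any untreated library or treated KO replicate 1. In the fit to all libraries 21 of the 25 were negative without and 17 with TGF-β. The median of the list after TGF-β was -0.24, beside -0.01 over all genes.

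*Cdc25a*, the phosphatase that activates CDK2 and CDK4 complexes, changed little in any comparison. It was at 50.9 and 46.0 CPM in untreated and at 44.6 and 44.6 CPM in treated control cells, and at 46.7 and 40.5 CPM in untreated and at 49.1 and 41.6 CPM in treated KO cells. With TGF-β the groups did not overlap in control cells but differed by only -0.12 ± 0.16 (95% interval -0.48 to 0.24, adjusted p = 0.675), and in KO cells they overlapped, with 0.06 ± 0.16 (-0.31 to 0.42, adjusted p = 0.874). No interval for *Cdc25a* in the 4 comparisons went beyond -0.52 or 0.42.

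*Ccnd1*, the dominant D-type cyclin, was at 1157 and 1089 CPM in untreated control libraries, at 1115 and 689 CPM in treated control libraries, at 1105 and 1168 CPM in untreated KO libraries and at 969 and 1166 CPM in treated KO libraries. A single treated control library was low and the other 7 lay between 969 and 1168 CPM. The log2 fold change was -0.32 ± 0.21 with TGF-β in control cells (95% interval -0.78 to 0.15, adjusted p = 0.360), -0.09 ± 0.21 in KO cells (adjusted p = 0.844), 0.02 ± 0.21 between untreated genotypes (adjusted p = 0.980) and 0.24 ± 0.21 between treated genotypes (adjusted p = 0.460). When treated control replicate 1 was left out, which leaves the low library alone, *Ccnd1* was called with TGF-β in control cells (-0.72, adjusted p = 0.0225) and between treated genotypes (0.65, adjusted p = 0.0202). *Ccnd1* (chromosome 7, 152115836 to 152125774 on NCBIM37) overlaps *Oraov1* on the opposite strand from 152115836 to 152116653, which had 116 to 350 counts beside 5011 to 14671 for *Ccnd1*.

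*Ccnd3* was at 31.2 and 28.8 CPM in untreated and at 22.8 and 21.1 CPM in treated control libraries, and at 28.7 and 36.7 CPM in untreated and at 25.2 and 26.3 CPM in treated KO libraries. Treated libraries were lower than untreated ones without overlap in both genotypes, but neither difference was called, at -0.45 ± 0.18 in control (95% interval -0.86 to -0.04, adjusted p = 0.150) and -0.35 ± 0.18 in KO cells (-0.76 to 0.06, adjusted p = 0.294). Its end overlaps *Bysl* on the other strand, a gene of similar count (219 to 739), and without the strand setting of the counting the shared part is uncertain.

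*Ccnd2* (ENSMUSG00000000184, chromosome 6, 127075797 to 127101066, minus strand on NCBIM37), the least abundant D-type cyclin, showed the largest difference between genotypes of the 9 genes tested. It had 116 and 140 counts in untreated and 257 and 180 in treated control libraries (13.99, 17.1, 24.1 and 19.05 CPM), against 7 and 43 counts in untreated and 49 and 80 in treated KO libraries (1.54, 5.72, 3.99 and 6.36 CPM). All 4 KO libraries lay below all 4 control libraries. After TGF-β the level was 21.6 ± 3.56 CPM in control and 5.18 ± 1.67 CPM in KO cells (mean ± SD, n = 2), a log2 fold change of -2.06 ± 0.42 (4.16-fold lower, 95% interval -2.998 to -1.11, edgeR adjusted p = 0.0137). Without TGF-β it was -1.996 ± 0.46 (3.99-fold lower, -3.03 to -0.96), which was not called (adjusted p = 0.0718) and became -1.44 without untreated KO replicate 1 and -3.33 without untreated KO replicate 2. In that comparison the untreated KO libraries differed 3.70-fold and the lower one was the shallowest library of the series, while DESeq2 (adjusted p = 0.00103) and a fit to only these 4 libraries (0.0110) called it. The call after TGF-β was lost only without treated KO replicate 1 (-1.75, adjusted p = 0.0591). With TGF-β itself *Ccnd2* changed by 0.47 ± 0.40 in control (adjusted p = 0.480) and 0.41 ± 0.47 in KO cells (adjusted p = 0.657), and the difference between these responses was -0.06 ± 0.63 (95% interval -1.47 to 1.35). As a share of the summed D-type cyclins per kb, *Ccnd2* was 0.886 ± 0.161% in untreated and 1.56 ± 0.250% in treated control cells and 0.201 ± 0.157% and 0.308 ± 0.0617% in KO cells.

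*Ccne1* (ENSMUSG00000002068, chromosome 7, 38883003 to 38892553, minus strand on NCBIM37), which encodes cyclin E1, the partner of CDK2 at the entry to S phase, was at 17.97 and 14.4 CPM in untreated and at 12.8 and 17.6 CPM in treated control libraries. It was at 13.4 and 16.1 CPM in untreated KO libraries and at 8.40 and 5.72 CPM in treated KO libraries. The 2 treated KO libraries were lower than the other 6. Between treated genotypes the log2 fold change was -1.10 ± 0.28 (2.15-fold lower in KO, 95% interval -1.73 to -0.48, edgeR adjusted p = 0.0294), and with TGF-β in KO cells it was -1.07 ± 0.29 (2.10-fold, -1.71 to -0.43), which was not called (adjusted p = 0.0564). This fall in KO cells was called by DESeq2, without a filter on low counts and with the exchanged replicate block described below. In control cells the change with TGF-β was -0.09 ± 0.27 (-0.71 to 0.52, adjusted p = 0.865) and between untreated genotypes -0.13 ± 0.28 (-0.75 to 0.50, adjusted p = 0.877). The test of the difference between the responses gave -0.98 ± 0.40 (95% interval -1.87 to -0.09, adjusted p = 0.534), which was not called. The call between treated genotypes was also lost with only the 4 libraries of the comparison (adjusted p = 0.108), with thinned counts (0.0887), with the replicate block (0.0507) and when any of 5 libraries was left out, with treated KO replicate 2 giving the weakest value (-0.84, adjusted p = 0.193). *Ccne1* and *Ccnd1* lie on chromosome 7, whose 943 tested genes had a median log2 fold change in KO against control cells of -0.25 without and -0.14 with TGF-β, and the part of this shift in the *Ccne1* difference was not tested.

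**Figure D3:**
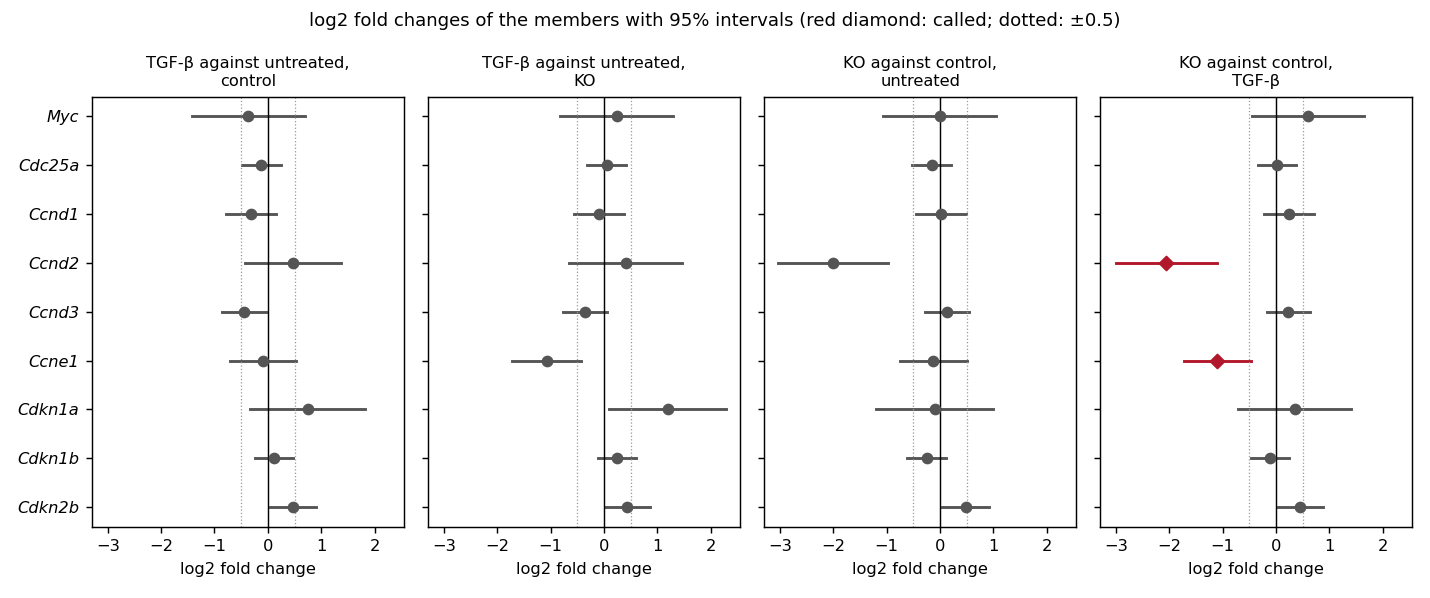
log2 fold change of each tested gene (point) with its 95% interval (line) in the 4 comparisons, with called genes as red diamonds and the fold threshold of 0.5 dotted. *Ccnd2* and *Ccne1* are called between treated genotypes, *Ccnd2* has nearly the same value between untreated genotypes, and the intervals of *Myc* and *Cdkn1a* are the widest for TGF-β in control cells.

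*Cdkn2b* (ENSMUSG00000073802, chromosome 4, 88952198 to 88956941, minus strand on NCBIM37), the INK4 inhibitor classically induced by TGF-β, was at 39.3 and 52.0 CPM in untreated and at 66.3 and 59.9 CPM in treated control libraries. It was at 70.5 and 57.2 CPM in untreated and at 94.7 and 78.2 CPM in treated KO libraries. The groups were ordered without overlap in all 4 comparisons, treated above untreated and KO above control. Every difference was of about the same size and none was called: 0.47 ± 0.19 with TGF-β in control cells (95% interval 0.04 to 0.90, adjusted p = 0.154), 0.44 ± 0.19 in KO cells (0.01 to 0.87, adjusted p = 0.206), 0.48 ± 0.19 between untreated (0.05 to 0.91, adjusted p = 0.282) and 0.45 ± 0.19 between treated genotypes (0.03 to 0.87, adjusted p = 0.133). All 4 were also below the fold threshold of 0.5. The responses to TGF-β differed by -0.03 ± 0.27 (-0.63 to 0.58). *Cdkn2a*, the neighbouring INK4 gene on chromosome 4, was at 12.3 and 7.41 CPM in treated control and at 18.8 and 20.3 CPM in treated KO libraries, a log2 fold change of 0.98 ± 0.26 (adjusted p = 0.0341). This call was lost with the replicate block, with thinned counts, with only the 4 libraries compared and when any library other than treated control replicate 1 was left out.

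*Cdkn1a* (ENSMUSG00000023067, chromosome 17, 29227924 to 29237667, plus strand on NCBIM37), which encodes the p21 inhibitor, was high in a single library of each treated group. It was at 56.7 and 57.7 CPM in untreated and at 135 and 56.4 CPM in treated control libraries, and at 44.5 and 61.7 CPM in untreated and at 62.8 and 181 CPM in treated KO libraries. The treated replicates differed 2.39-fold in control and 2.88-fold in KO cells, more than 94.6% and 98.74% of tested genes. The log2 fold change with TGF-β was 0.74 ± 0.48 in control (95% interval -0.34 to 1.83, adjusted p = 0.356) and 1.19 ± 0.49 in KO cells (0.10 to 2.29, adjusted p = 0.186), and neither was called. Without a filter on low counts *Cdkn1a* was called higher with TGF-β in both genotypes. It was also called in KO cells when treated KO replicate 1 was left out (1.79). Both treated libraries with high *Cdkn1a* also had the higher *Myc* of their pair. The same libraries were higher in the TGF-β targets *Smad7* (1.94-fold in the treated control pair), *Junb* (2.27-fold) and *Tgif1* (1.85-fold) and in *Atf3* (2.12-fold). Other genes went the other way. *Klf10*, also an early TGF-β target, and the growth arrest genes *Gadd45a* and *Tob1* were higher in the opposite library of both treated pairs. The part of these library differences in the *Cdkn1a* difference was not tested.

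*Cdkn1b*, which encodes p27, was at 93.1 and 78.0 CPM in untreated and at 91.1 and 94.0 CPM in treated control libraries, and at 76.3 and 68.0 CPM in untreated and at 93.7 and 77.2 CPM in treated KO libraries. Only the comparisons of TGF-β in KO cells and of untreated genotypes had groups that did not overlap, with 0.25 ± 0.16 (95% interval -0.12 to 0.61, adjusted p = 0.414) and -0.25 ± 0.16 (-0.61 to 0.12, adjusted p = 0.526). *Cdkn1c*, which encodes p57, had 1 and 2 counts in an untreated and a treated control library and 0 in the other 6, under the floor of 3 counts, so no change was detectable at this depth.

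Across the 9 genes, the groups did not overlap for 4 with TGF-β in control cells, 5 in KO cells, 3 between untreated and 4 between treated genotypes, beside 53.7%, 56.6%, 51.9% and 55.8% of all genes tested, so this count was close to or below the background. For the interaction of genotype and TGF-β, edgeR called none of the 9 and 0 of 13028 genes, with 1 and 1134 at an unadjusted p below 0.05. DESeq2 called 0 of the members and 31 of all genes, and limma-voom 0 and 0.

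Of 37 other regulators of the G1 to S transition, 3 rose and 3 fell with TGF-β in control cells, where 4.69% of all tested genes were called higher and 4.47% lower, and 2 rose and 4 fell in KO cells, where 4.25% were called higher and 2.57% lower. *E2f2*, an activating E2F factor, was at 22.1 and 19.7 CPM in untreated and at 1.78 and 2.43 CPM in treated control libraries, and at 18.96 and 22.2 CPM in untreated and at 3.02 and 1.67 CPM in treated KO libraries. It fell by 3.31 ± 0.33 (adjusted p = 8.86e-04) and 3.13 ± 0.32 (adjusted p = 9.50e-04) on the log2 scale. *Ccng2*, an atypical cyclin of arrested cells, rose by 1.35 ± 0.16 and 1.36 ± 0.16 (adjusted p = 0.00165 and 0.00168), and *Fbxw7*, the ubiquitin ligase subunit that degrades cyclin E and MYC, rose by 1.08 ± 0.16 and 0.93 ± 0.17 (adjusted p = 0.00543 and 0.0117). *Cdc25b* and the repressor *E2f8* were called lower in both genotypes in the fit to all 8 libraries. The direct partners *Cdk4*, *Cdk2* and *Rb1* were not called in any of the 4 edgeR comparisons, and neither was *Cdk6*, whose largest change was -0.64 ± 0.20 with TGF-β in control cells (adjusted p = 0.0752).

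After TGF-β, 6 of the 37 were lower in KO than in control cells and 1, *Cdkn2a*, was higher, beside 6.57% and 8.47% of all genes. Without TGF-β none was called in edgeR, beside 0.798% of all genes called lower and 1.03% higher, with 5 at an unadjusted p below 0.05, 1 called lower by DESeq2, 0 by limma-voom and 2 in a fit to only these 4 libraries. The summed level of the list was lower in KO libraries without overlap both without TGF-β, at 2983 to 3112 against 3361 to 3400 CPM, and with it, at 2838 to 3099 against 3746 to 3961 CPM. The interaction was called for none of the 37 by edgeR (4 at an unadjusted p below 0.05), DESeq2 or limma-voom. The genes lower after TGF-β included *Cks1b* (-0.97 ± 0.16, adjusted p = 0.00652, beside -0.74 ± 0.16 and adjusted p = 0.0607 without TGF-β) and *Skp2* (-1.13 ± 0.20, adjusted p = 0.00813), which act together in the destruction of p27, the pocket protein gene *Rbl1* (-1.06 ± 0.21, adjusted p = 0.0121) and the S-phase cyclins *Ccna2* (-1.10 ± 0.25, adjusted p = 0.0184) and *Ccne2* (-1.18 ± 0.33, adjusted p = 0.0399). *Skp2* was at 44.0 and 39.1 CPM in treated control and at 21.9 and 16.1 CPM in treated KO libraries. Of 26 DNA replication genes, 3 were lower with TGF-β in control cells and 13 in KO cells, and 16 were lower in KO than in control cells after TGF-β, beside 4.47%, 2.57% and 6.57% of all genes called lower. The medians of the list were -0.13, -0.69 and -0.73 in these comparisons, beside 0.02, 0.00 and -0.01 over all genes. *Cdc6*, which loads the replicative helicase, fell by 1.58 ± 0.19 with TGF-β in KO cells (adjusted p = 0.00201) and was lower by -1.41 ± 0.19 than in treated control cells (adjusted p = 0.00272). Their summed level was 3572 and 3832 CPM in untreated control, 3199 and 3583 CPM in treated control, 3068 and 3459 CPM in untreated KO and 1867 and 2359 CPM in treated KO libraries, lowest in the same 2 libraries as *Ccne1*. Between untreated genotypes it was also lower in KO libraries without overlap, with 23 of the 26 genes negative and a median of -0.17. There edgeR called none (4 at an unadjusted p below 0.05), as did DESeq2 and limma-voom, while a fit to only these 4 libraries called 3 lower.

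These counts depended on single libraries. The 16 replication genes lower between treated genotypes became 3 without treated KO replicate 2, 10 without treated control replicate 2, 9 without either untreated KO library and 3 in a fit to only the 4 libraries compared. The 13 that fell with TGF-β in KO cells became 1 without treated KO replicate 2 or either untreated KO library, and the 3 that fell in control cells became 0 and 1 without untreated control replicates 1 and 2. Of 20 mitosis genes, 9 were lower in treated KO than in treated control cells, beside 6.57% of all genes, with *Cdk1* at -0.90 ± 0.15 (adjusted p = 0.0067). They became 1 without treated KO replicate 2, 4 without treated control replicate 2, 14 without treated KO replicate 1 and 0 with only the 4 libraries. The 2 mitosis genes that fell with TGF-β in KO cells became 0 without either untreated control library, either untreated KO library or treated KO replicate 2. The 3 G1 to S regulators that fell with TGF-β in control cells became 1 without either untreated control library, and the 3 that rose became 1 without untreated control replicate 1. The 4 that fell in KO cells became 1 without any untreated library or treated KO replicate 2 and 2 with only the 4 libraries, and the 2 that rose became 1 without either untreated KO library. The 6 G1 to S regulators lower between treated genotypes became 0 without treated KO replicate 2, 3 without treated control replicate 2 and 1 with only the 4 libraries. With only the 4 libraries compared, the 2 mitosis genes that fell with TGF-β in KO cells also became 0. Other settings raised counts for TGF-β in control cells. The 3 G1 to S regulators that rose there became 5 with DESeq2 and 5 without a filter on low counts, where the 3 that fell became 6. The summed level of the mitosis genes was 5095 and 5209 CPM in the untreated control and 3739 and 4238 CPM in the untreated KO libraries, and 4917 and 6841 CPM in the treated control and 3667 and 2373 CPM in the treated KO libraries. It was thus lower in KO libraries without overlap also before TGF-β, where 19 of the 20 genes were negative with a median of -0.25 and edgeR called none (2 at an unadjusted p below 0.05), as did DESeq2 and limma-voom, while a fit to only these 4 libraries called 4 lower. edgeR called the interaction for no gene of the replication and mitosis lists, with 11 of 26 and 6 of 20 at an unadjusted p below 0.05, while DESeq2 called 1 and 0 and limma-voom 0 and 0. In its own cell assays, the study saw no change in the cell cycle or the proliferation of the depleted cells.

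**Figure D4:**
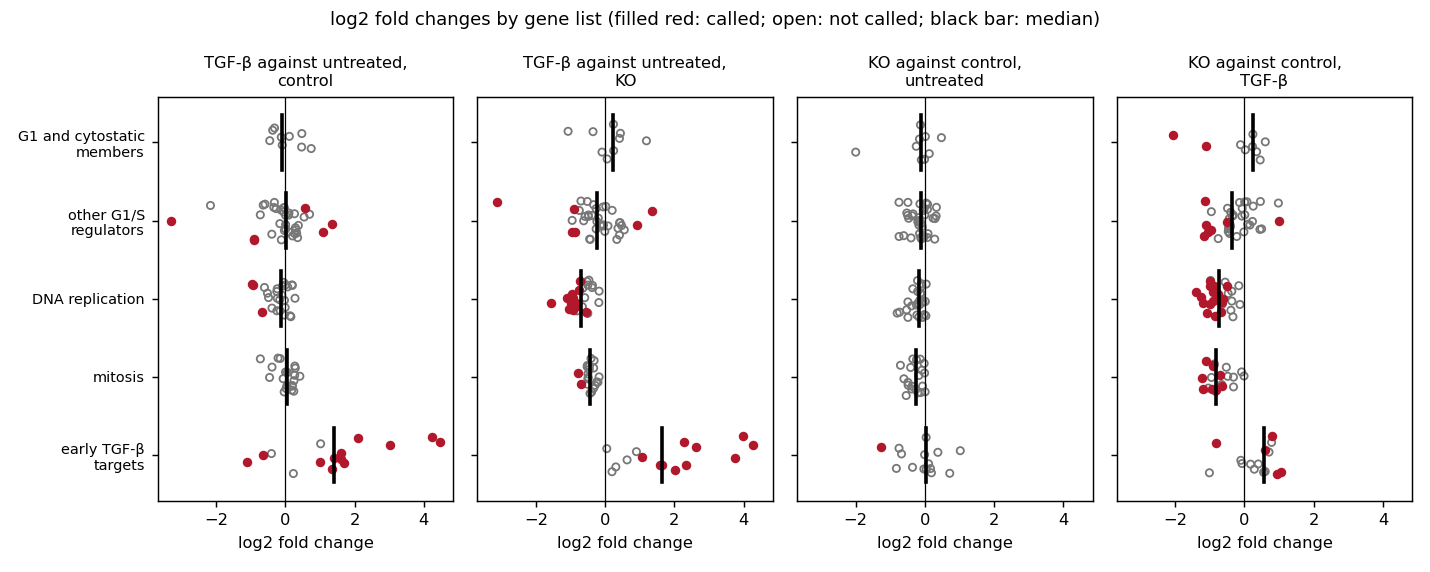
log2 fold changes of the tested genes of 5 lists in the 4 comparisons, one point a gene, filled red where called and open where not, with a black bar at the median. The replication and mitosis genes sit to the left of 0 for TGF-β in KO cells and for KO against control after TGF-β, and most of the early TGF-β targets sit to the right with TGF-β in both genotypes.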

How the data were processed

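The data were RNA-seq libraries of NMuMG cells, 2 of each of 4 conditions. The authors deposited raw read counts per gene for the 8 libraries, without normalization. According to the study's methods, reads were aligned with subjunc to mm10 and mm9 and duplicates removed with samtools rmdup, whereas the submitters' processing notes name HISAT2 and limma. Counting tool and strand setting are not given in the sources used here, which also differ on library kit and sequencer. Removing duplicates by position can lower the counts of abundant genes such as *Ccnd1*. Gene identifiers matched GENCODE vM1 (NCBIM37).

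Counts were tested with edgeR 4.0.16 in R 4.3.3 (filterByExpr, TMM, glmQLFit and glmQLFTest over all 8 libraries, no block, Benjamini-Hochberg over 13028 genes). Calls needed an adjusted p under 0.05 and a log2 fold change of more than 0.5 in size, as in the study, and the interaction by adjusted p alone. The biological coefficient of variation was 0.18. CPM used TMM factors, and CPM per kb the merged exon length. SE is the absolute log2 fold change divided by the square root of F. Intervals for log2 fold changes are 95% intervals. Alternatives were DESeq2 1.42.0, limma-voom 3.58.1, RLE factors, other count filters, a replicate block, counts thinned to the smallest total, own libraries only and each library left out. The fits were tested on simulated data with 1 biological coefficient of variation, 0.18, for all genes. Of 100 genes given a log2 change of 1 in size, 37 were recovered for TGF-β in control and 37 in KO cells. Between genotypes 56 were recovered without and 55 with TGF-β. At a log2 change of 2, 96 to 99 of 100 were recovered.

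The members and lists were chosen with earlier results of these data known. Named genes were all members, the targeted gene, *Smad7* as treatment check, the direct partners *Cdk2*, *Cdk4*, *Cdk6*, *Rb1* and *Cdkn2a*, and up to 6 called genes of a list with the smallest adjusted p. Of the epithelial markers, the most abundant, *Cdh1* and some absent or nearly absent genes were named. *Oraov1* and *Bysl* were named because they overlap members. *Junb*, *Tgif1*, *Atf3*, *Klf10* and *Tob1* were named after their values were seen.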

Additional observations from a re-analysis of the deposited data

How the results depend on the processing

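The call of *Ccnd2* lower in KO than in control cells after TGF-β held in all settings except without treated KO replicate 1 (-1.75). With a library left out, its log2 fold change ranged over -2.42 to -1.75 after TGF-β and over -3.33 to -1.44 between untreated genotypes, where it was called without either treated control library. Members called with TGF-β in control cells numbered 1 without a filter on low counts and 0 to 1 with a library left out. In KO cells they numbered 1 with DESeq2, 2 without a filter, 1 with the exchanged replicate block and 0 to 1 with a library left out. Between untreated genotypes they numbered 1 with DESeq2, without a filter, with the exchanged block and with only the 4 libraries, and 0 to 1 with a library left out. Between treated genotypes they numbered 3 without a filter (*Myc* added), 1 with the replicate block, 1 with only the 4 libraries and 1 with thinned counts, and 1 to 3 with a library left out. The interaction had 0 members called in every setting. The replicate block took *Ccne1* between treated genotypes to an adjusted p of 0.0507 and changed no other call of a member. The cause of these changes was not tested.

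With only 2 pairs a comparison, the shared replicate numbers were not taken as a pairing. Deviations of same-numbered libraries correlated across genes at 0.297 for TGF-β in control and -0.00915 in KO cells and at 0.098 between untreated and -0.473 between treated genotypes, so the block was also fitted with the numbers of the treated KO libraries exchanged, a setting chosen after seeing the data, and for TGF-β in control and KO cells it called 1954 and 1550 of all genes, against 831 and 676 with the numbers as labelled.

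With no library left out, signs turned only where the value was near 0: *Cdc25a* with thinned counts (-0.0164 with TGF-β in KO cells, -0.12 between treated genotypes), *Myc* between untreated genotypes with limma-voom (0.0082) and the exchanged block (0.0065), *Ccnd1* there without a filter (-0.0185) and with only 4 libraries (-0.0045), and the interaction of *Ccnd2* with limma-voom (0.0755), without a filter (0.0042) and with thinned counts (0.0299) and of *Cdkn2b* without a filter (0.0421). Larger values also turned when a library was left out, such as 0.60 for *Myc* between treated genotypes. With a library left out, log2 fold changes ranged, with TGF-β in control cells, over -0.33 to 0.10 for *Ccne1*, -0.0069 to 0.245 for *Cdkn1b* and -0.0348 to 1.24 for *Cdkn1a*; with TGF-β in KO cells, over -0.78 to 0.86 for *Myc*, -0.14 to 1.75 for *Ccnd2*, -0.0424 to 0.20 for *Cdc25a* and -0.20 to 0.0612 for *Ccnd1*; between untreated genotypes, over -0.28 to 0.0369 for *Ccne1*, -0.33 to 0.24 for *Myc*, -0.0282 to 0.0560 for *Ccnd1*, -0.37 to 0.11 for *Cdkn1a* and -0.0715 to 0.29 for *Ccnd3*; between treated genotypes, over -0.0602 to 0.65 for *Ccnd1*, -0.60 to 1.13 for *Cdkn1a*, -0.0922 to 0.15 for *Cdc25a*, -0.43 to 1.21 for *Myc* and -0.25 to 0.0329 for *Cdkn1b*; and for the interaction, over -0.61 to 1.27 for *Ccnd2*, -0.24 to 0.17 for *Cdkn2b*, -0.0539 to 0.66 for *Ccnd1*, -0.47 to 1.25 for *Cdkn1a*, -0.0526 to 0.31 for *Ccnd3* and -0.40 to 1.24 for *Myc*. The smallest library limits *Ccnd2* (7 counts there), and *Cdkn1c* had at most 2 counts in any library.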

Other observations

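Among 17 other genes with a known part in growth arrest by TGF-β, 4 rose with TGF-β in control cells and 5 rose and 1 fell in KO cells, beside 4.69% of all genes called higher in control cells and 4.25% called higher and 2.57% called lower in KO cells. The 4 became 1 without untreated control replicate 1 and 2 without untreated control replicate 2, treated control replicate 1 or either untreated KO library. The 5 became 2 and 1 without untreated KO replicates 1 and 2 and 2 without treated KO replicate 2, and the 1 that fell was lost without either untreated KO library. *Gadd45b* and *Gadd45a*, stress sensors that can restrain CDK1, rose by 1.75 ± 0.18 and 2.22 ± 0.35 in control cells and by 2.33 ± 0.19 and 1.83 ± 0.35 in KO cells (log2 fold change ± SE, edgeR adjusted p between 3.13e-04 and 0.0156). *Gadd45a* was at 7.36 and 10.3 CPM in untreated and at 32.1 and 50.1 CPM in treated control libraries. *Klf6* and *Smad3* rose in both genotypes, *Foxo1* rose in KO cells (1.07 ± 0.24, adjusted p = 0.0286) and was at 0.45 ± 0.23 in control cells (adjusted p = 0.240). The antiproliferative *Btg2* fell in KO cells (-1.41 ± 0.25, adjusted p = 0.0116) and was at -0.89 ± 0.25 in control cells (adjusted p = 0.0553), where the groups did not overlap either and where DESeq2 and thinned counts each called 2 genes of the list lower. The list had no gene called between genotypes in edgeR, DESeq2 or limma-voom. In edgeR the unadjusted p was below 0.05 for 1 of 17 without and 2 of 17 with TGF-β, beside 1936 and 4086 of all 13028 genes. Differences between the responses of these genes were not called. Of the early TGF-β targets, 10 of 15 rose in each genotype. In KO against control cells 1 was called lower without TGF-β, and 4 were called higher and 1 lower with TGF-β, beside 0.798%, 8.47% and 6.57% of all genes, and the 4 ranged from 0, without treated KO replicate 2, to 9, without treated control replicate 1, and were 2 without treated control replicate 2 or either untreated KO library. The 4 became 1 with only the 4 libraries compared. The 1 lower without TGF-β became 2 with DESeq2, which also called 1 higher, 4 with only the 4 libraries or without a filter on low counts, and 0 without any untreated library, and the 1 lower with TGF-β became 0 without treated control replicate 1, either untreated KO library or treated KO replicate 1. *Id1* and *Id3*, regulators that TGF-β is known to repress in epithelial cells, were called lower in control cells (-0.65 ± 0.17 and -1.10 ± 0.29, adjusted p = 0.0480 for both) and were at 0.31 ± 0.17 and 0.20 ± 0.30 in KO cells (adjusted p = 0.337 and 0.744). Of these calls in control cells, 1 was left with limma-voom, the replicate block or thinned counts, and 0 with only the 4 libraries compared and without any untreated library or treated control replicate 2. The interaction was 0.96 ± 0.25 for *Id1* and 1.30 ± 0.42 for *Id3*, which was not called (adjusted p = 0.444 and 0.495).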
